A study of Mus musculus with 60 samples.

Results

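Kidneys of control mice collected early in the night (ZT16) were compared with kidneys of control mice collected early in the day (ZT4). Zeitgeber time (ZT) counts hours from lights on, with lights off at ZT12, so ZT4 falls in the rest phase of a mouse and ZT16 in its active phase. The comparison used the 5 control samples of each time, 10 of the 60 samples in the series, which also holds 4 other times and a second genotype. Controls were male Bmal1 lox/lox mice on a C57BL/6J background, littermates of the mutants and without the Pax8-rtTA and LC-1 Cre transgenes. The mutants, called cKOt, carried both transgenes, with which doxycycline inactivates Bmal1 (Arntl) in the renal tubule. Both genotypes received doxycycline in sucrose-sweetened drinking water at 2 mg/ml for 2 weeks from an age of 8 weeks, had free access to chow, and were killed 4 weeks after the end of doxycycline. Controls therefore carried the floxed allele and had been exposed to the drug, but had no Cre.

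The labels name the tissue renal tubule, whereas the study's methods describe RNA from frozen pieces of whole kidney. Markers of other kidney cells were present in every library. The 6 podocyte markers summed to 345 to 424 CPM (gene counts scaled to the size of the library) at ZT4 and to 331 to 373 CPM at ZT16, and the 6 endothelial markers to 393 to 434 and 418 to 451 CPM. The 8 proximal tubule markers summed to 11224 to 12092 CPM at ZT4 and 10440 to 13907 CPM at ZT16. Adrenal cortex markers, of which 1 of 5 was expressed above the filter, summed to at most 1.87 CPM. In such bulk samples fewer cells of a type and less RNA per cell cannot be told apart. The libraries were of similar depth, with 18013474 to 19372779 counts in genes at ZT4 and 18174609 to 19597225 at ZT16. The mice were a selection, made by the study partly on how close their expression lay to that of the other mice of their group, which narrows the spread that the tests measure.

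The circadian clock of mammalian cells is a transcriptional loop. BMAL1 (the product of Arntl) and CLOCK activate the Per and Cry genes and the nuclear receptors Nr1d1 and Nr1d2 through E-box sequences, PER and CRY proteins repress BMAL1 and CLOCK, and NR1D1 and NR1D2 repress Arntl. In the kidney this clock and systemic signals such as glucocorticoids, feeding and body temperature are known to drive daily rhythms of transport and metabolism.

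Of 15546 genes tested with edgeR's quasi-likelihood test, 1057 (6.8%) were higher at ZT16 and 948 (6.1%) were lower at a Benjamini-Hochberg adjusted p below 0.05, together 2005 genes (12.9%). Most of these differences were small. The median size among the called genes was 0.31 on the log2 scale, and at least 2-fold differences were seen in 46 genes higher and 70 genes lower at ZT16. In 887 genes (5.71% of those tested) the 5 values of each time did not overlap, 462 with all ZT16 values above and 425 with all below. The median log2 difference of all tested genes was -0.01. The number called depended on the model: it was 1004 without the 2 factors of unwanted variation and 552 when only the 10 kidneys were fitted.

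Among called genes averaging at least 5 CPM and without overlap between times, the largest rise and the 2 largest falls were in clock genes. Of 22 genes of the clock (5 activators, 10 repressors and 7 output genes), 12 were higher at ZT16, 6 were lower and 4 did not pass the test, against 12.9% of all genes called. In 10 of the 22 the values of ZT4 and ZT16 did not overlap, against 5.71% of all genes.

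Cry1, a repressor of the clock (ENSMUSG00000020038, GRCm38 chr10:85131700-85185064, minus strand), measured 1.75, 3.05, 2.97, 2.53 and 3.47 CPM in the 5 ZT4 kidneys and 22.4, 19.9, 21.3, 24.5 and 23.2 CPM in the 5 ZT16 kidneys. The lowest value at night was thus several times the highest value by day. The difference was 3.01 ± 0.13 on the log2 scale (SE, n = 5 per time), or 8.06-fold (edgeR adjusted p = 1.9e-25). Across the day the mean of Cry1 was 2.75 CPM at ZT4, its lowest, and 22.3 and 23.1 CPM at ZT16 and ZT20, its highest.

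Nfil3 and Per2 also rose strongly. Nfil3, a repressor acting on D-box sequences, read 4.09, 1.99, 1.81, 2.97 and 2.95 CPM at ZT4 and 7.19, 20.4, 8.95, 12.4 and 24.2 CPM at ZT16. All 5 night values lay above the day values, but they spread far more widely than those of Cry1, and the log2 rise was 2.41 ± 0.36. Per2, a light- and glucocorticoid-responsive repressor, went from 26.9, 42.1, 37.2, 14.7 and 27.9 CPM to 126, 112, 104, 85.2 and 75.2 CPM, a log2 rise of 1.74 ± 0.16, and again no night value fell within the day range.

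The falls of Nr1d1 and Dbp were the largest in the clock. Nr1d1, which encodes the Arntl repressor REV-ERB alpha (ENSMUSG00000020889, chr11:98767932-98775333, minus strand), had 63.9, 74.2, 79.3, 84.2 and 70.8 CPM at ZT4 and 7.46, 8.9, 5.45, 6.15 and 4.75 CPM at ZT16, an 11.4-fold fall (log2 difference -3.51 ± 0.23, edgeR adjusted p = 2.7e-17). Dbp, an activator acting on D-box sequences (chr7:45705088-45710203, plus strand), had 44.4, 60.9, 57.6, 32.8 and 40.4 CPM by day and 13.1, 14.6, 8.32, 5.97 and 6.78 CPM by night, a log2 difference of -2.28 ± 0.18. For both genes every night value lay below every day value. Ciart, a further repressor, was lower at night by -1.67 ± 0.28, with 1 day value (4.12 CPM, replicate 4) inside the night range of 1.58 to 5.39 CPM. Bhlhe41 (-0.86 ± 0.22), Nr1d2 (-0.64 ± 0.13) and Tef (-0.26 ± 0.09) were lower by smaller amounts.

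Other members rose by less than 2-fold: the output gene Noct (0.99 ± 0.24), the kinase gene Wee1 (0.86 ± 0.12), the repressor gene Bhlhe40 (0.55 ± 0.15), Cry2 (0.49 ± 0.06), the deubiquitinase gene Usp2 (0.40 ± 0.10), Hlf (0.35 ± 0.08) and Clock (0.32 ± 0.09). Per1, Per3, Npas2 and Rora did not pass the test. Per3 had a mean of 43.2 CPM at ZT4 and 42.3 CPM at ZT16, a log2 difference of -0.03 ± 0.14, although it reached 74.2 CPM at ZT12 and 14.6 CPM at ZT20. ZT4 and ZT16 lay on the rising and falling side of its daily curve, and the same held for Per1, with 20.5 and 22.5 CPM at these times and 43.3 CPM at ZT12. A comparison of only these times therefore does not show whether a gene varied over the day.

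Arntl itself was variable within both times. The ZT4 kidneys measured 11.2, 5.54, 5.55, 16.8 and 12.3 CPM and the ZT16 kidneys 12, 14.1, 16.3, 36.5 and 28.4 CPM, so the groups overlapped, and the log2 rise was 1.05 ± 0.21 (edgeR adjusted p = 0.00035). The study's sample table assigns libraries to batches, of which 4 held controls of both times. Within these 4 batches the log2 difference of Arntl was -0.04, 1.54, 2.70 and 0.25, whereas that of Cry1 was 2.65, 2.77, 3.00 and 3.03 and that of Nr1d1 -3.23, -3.74, -3.67 and -3.67. Of the 2005 called genes, 1448 (72.2%) had the same sign in all 4 batches, as did 21.4% of all tested genes. The calls used these same mice, so called genes share a sign more often by selection, and the 2 shares are no test. Cry1 and Nr1d1 thus kept their direction and size within each batch, while Arntl did not. Within batch 6, Arntl was 14.1 CPM in ZT16 replicate 2 and 28.4 CPM in ZT16 replicate 5. Where a batch held a single mouse of a time, batch and individual mouse cannot be told apart.

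**Figure D1:**
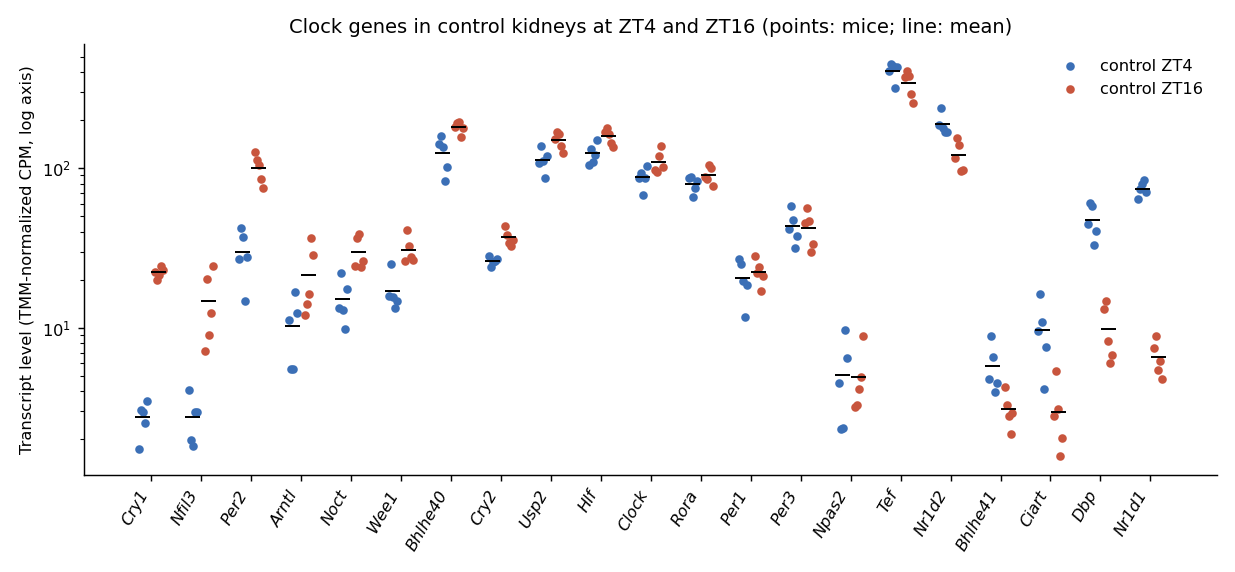
TMM-normalized CPM (vertical, log axis) of clock genes in each of the 5 control kidneys at ZT4 (blue) and the 5 at ZT16 (red), with points for single mice and a line for each group mean. Cry1 and Per2 were higher and Nr1d1 and Dbp lower in all ZT16 kidneys, while Arntl overlapped between 5.54 to 16.8 and 12 to 36.5 CPM.

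E-boxes bound by BMAL1 and CLOCK were searched as CACGTG in the 250 bases before the start of each gene, in RefSeq promoter sequences of GRCm38.p6. The motif is its own reverse complement, so a search of both strands gives the same matches. It was found before 5 of the 18 clock genes that had a promoter sequence (27.8%), namely Bhlhe41, Ciart, Cry1, Per1 and Tef, compared with 9.57% of tested genes and 6.86% of all promoters. The windows of 4 of them are shown with the motif in capitals and 12 bases on either side, since they belong to 1 gene that rose (Cry1), 2 that fell (Bhlhe41 and Ciart) and 1 that did not pass the test (Per1). With Tef, which also fell, 3 of the 5 genes with the motif fell. These genes were picked for the motif after their values were known. Among all called genes the motif lay before 11.0% of those higher at ZT16 and 11.4% of those lower.
Cry1 (chr10:85185097-85185126, minus strand): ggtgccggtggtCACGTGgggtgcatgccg
Bhlhe41 (chr6:145865556-145865585, minus strand): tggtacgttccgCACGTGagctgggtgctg
Ciart (chr3:95882269-95882298, minus strand): cgcagggggaggCACGTGcagaaccgcacg
Per1 (chr11:69098771-69098800, plus strand): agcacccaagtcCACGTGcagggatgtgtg

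Chaperones of the endoplasmic reticulum (ER) formed the gene group with the most members higher at night. These proteins fold secreted and membrane proteins, and their genes are induced together in the unfolded protein response. Of 32 genes tested, 24 were higher at ZT16, 0 were lower and 8 did not pass the edgeR test, against 6.8% of all genes higher. At an unadjusted p below 0.05, and with DESeq2 and limma, the number lower was also 0. The median log2 difference of the list was 0.37, compared with -0.01 for all genes. In 14 of the 24 called members the times did not overlap, against 744 of all 2005 called genes.

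Hspa5, which encodes BiP, the main ER chaperone, read 664, 530, 409, 456 and 518 CPM at ZT4 and 910, 902, 821, 918 and 1196 CPM at ZT16. Every night value lay above the day values, and the log2 rise was 0.88 ± 0.14 (edgeR adjusted p = 1.6e-05). The largest rises of the list were in Sdf2l1, a cofactor of BiP, with 8.4, 3.99, 4.23, 6.65 and 4.82 CPM at ZT4 and 17.3, 12.6, 9.18, 15.2 and 22.2 CPM at ZT16 (1.46 ± 0.21), and in Derl3, a gene of ER-associated degradation, which was scarce (0.443 to 2.02 CPM against 1.09 to 4.17 CPM, overlapping, 1.46 ± 0.37). Creld2, a disulfide isomerase, rose by 1.29 ± 0.17, Hyou1, an exchange factor of BiP, by 0.97 ± 0.13, Manf, a secreted ER stress protein, by 0.92 ± 0.15, and Syvn1, a ubiquitin ligase of ER-associated degradation, by 0.64 ± 0.08. The abundant folding enzymes moved less, as in Hsp90b1 (0.54 ± 0.10), Pdia4 (0.50 ± 0.10), Calr (0.34 ± 0.10) and Canx (0.19 ± 0.05). The transcription factor genes Xbp1 (0.44 ± 0.14) and Atf4 (0.28 ± 0.08) were also higher.

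The other times, which this contrast did not use, placed the change after lights off for most of these genes. Of the 24 genes called, 17 had their highest control mean at ZT16, 6 at ZT20 and 1 at ZT0, and 19 had their lowest mean at ZT12. Of all 1057 genes higher at ZT16, 46.5% were highest at ZT16 and 16.1% lowest at ZT12. The call itself keeps a gene from being highest at ZT4, so these counts describe the called genes and are no test. Sdf2l1 averaged 5.62 CPM at ZT4, 3.07 CPM at ZT12 and 15.3 CPM at ZT16, and Hspa5 averaged 515, 429 and 949 CPM at these times. The interval from ZT12 to ZT16 thus held a larger difference than the 12 hours from ZT4 to ZT16 for these genes.

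The ER stress response element was searched on both strands as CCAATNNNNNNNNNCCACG in the same 250 bases. It lay before 9 of the 25 list genes with a promoter sequence (36%), before 19 of 11416 tested genes (0.166%) and before 35 of all 27025 promoters (0.13%). Among called genes it lay before 11 of 845 higher at ZT16 (1.30%) and 0 of 722 lower. The 11 include genes of the list itself, such as Hspa5, Syvn1 and Creld2, so they largely repeat the count of the list. The windows of 5 genes, chosen for the motif after their values were known, show how the match lies in either orientation and leaves the 9 middle bases free. The capitals mark the whole match, which reads CGTGG first where it is on the opposite strand.
Hspa5 (chr2:34772013-34772055, plus strand): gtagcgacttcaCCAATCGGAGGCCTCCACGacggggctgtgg
Syvn1 (chr19:6046520-6046562, plus strand): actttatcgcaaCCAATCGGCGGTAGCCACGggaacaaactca
Creld2 (chr15:88819508-88819550, plus strand): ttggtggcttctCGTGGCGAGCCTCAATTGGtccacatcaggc
Derl3 (chr10:75893230-75893272, plus strand): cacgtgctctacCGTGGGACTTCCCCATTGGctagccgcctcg
Hsp90b1 (chr10:86705521-86705563, minus strand): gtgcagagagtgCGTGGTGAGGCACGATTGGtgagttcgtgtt

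Heat shock genes, whose products refold proteins outside the ER and are induced through HSF1 by warmth and other stress, moved the same way. The list, mainly of cytosolic chaperones, also holds Hspd1 and Hspe1, which encode the mitochondrial chaperonin. Of 21 genes tested, 15 were higher at ZT16 (6.8% of all genes were), 0 were lower by edgeR (0 at an unadjusted p below 0.05, and 0 with DESeq2 and limma) and 6 did not pass the test, and the log2 difference was positive in all 21, with a median of 0.51. Hsph1 read 175, 245, 154, 110 and 148 CPM at ZT4 and 326, 357, 294, 345 and 291 CPM at ZT16 (0.96 ± 0.17, edgeR adjusted p = 6.0e-05). Hsp90aa1 read 229, 214, 143, 189 and 192 CPM by day and 313, 326, 278, 404 and 301 CPM by night (0.74 ± 0.12). Neither gene overlapped between times. Chordc1, a partner of HSP90, rose by 0.78 ± 0.10, Hspa8 by 0.70 ± 0.14, Dnaja1 and Stip1 by 0.62 ± 0.11 and 0.62 ± 0.09, and Hsf1 by 0.29 ± 0.07. Hspa1a and Hspa1b, which share most of their sequence so that reads between them are uncertain, had log2 differences of 0.50 ± 0.33 and 0.66 ± 0.33 and did not pass the test. Of the cytosolic chaperonin genes, 4 of 8 were higher, the largest difference among the 4 being 0.22 ± 0.06 in Cct7.

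Cirbp, an RNA-binding protein that is induced by cold, went the other way, from 38.7, 19.5, 31.2, 37.8 and 36.4 CPM at ZT4 to 22.8, 14.6, 16.2, 14.9 and 20 CPM at ZT16 (-0.88 ± 0.16, edgeR adjusted p = 5.2e-05). In this gene 1 day kidney, replicate 2, lay within the night range. The other cold-inducible gene tested did not pass the test and had a log2 difference of the opposite sign, 0.15. In cKOt kidneys 1 of these 2 genes was called higher at ZT16 and 1 lower, Cirbp being the lower.

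The core of a heat shock element, searched as GAANNTTC, which is its own reverse complement in its fixed letters, lay before 7 of the 17 heat shock genes with a promoter sequence (41.2%), compared with 6.26% of tested genes and 7.73% of all promoters. Among all called genes the core lay before 6.63% of those higher at ZT16 and 6.79% of those lower. It was found in 0 of the 25 promoters of the ER list. The ER stress response element was found in 0 of the 17 heat shock promoters. Of the 7, Dnaja1, Fkbp4, Hspb1 and Hspd1 were higher at ZT16, and Hspa1a, Hspa1b and Hspe1 did not pass the test. The 7 are not all separate sites. Hspd1 and Hspe1 share a site read on opposite strands, and the windows of Hspa1a and Hspa1b are identical. The windows of the 4 higher genes, chosen after their values were known, are shown with the core in capitals.
Dnaja1 (chr4:40722332-40722363, plus strand): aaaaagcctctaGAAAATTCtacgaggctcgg
Fkbp4 (chr6:128438788-128438819, minus strand): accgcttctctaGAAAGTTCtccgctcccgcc
Hspb1 (chr5:135887790-135887821, plus strand): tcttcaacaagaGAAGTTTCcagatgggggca
Hspd1 (chr1:55088052-55088083, minus strand): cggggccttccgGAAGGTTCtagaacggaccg

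**Figure D2:**
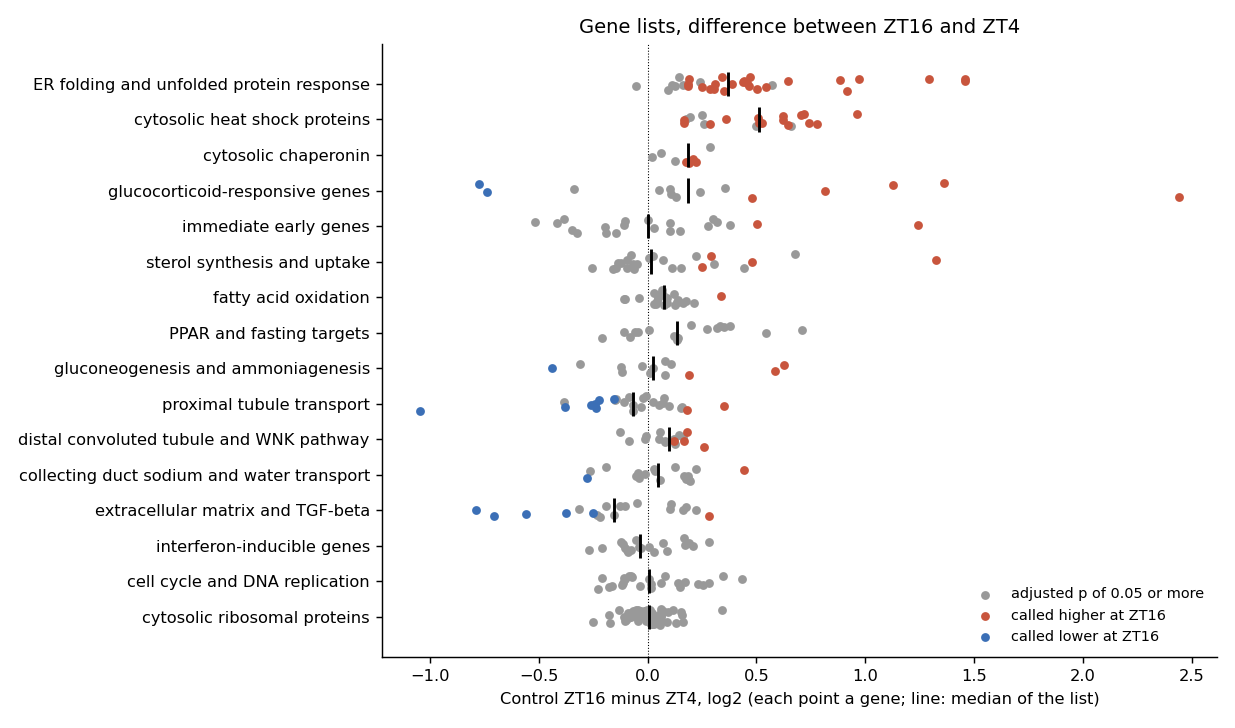
Log2 difference (horizontal), ZT16 minus ZT4, of the tested members of gene lists (rows) in control kidneys, with 1 point per gene, coloured where called, and a line for the median of each list. The 32 ER folding genes and the 21 heat shock genes sit mostly to the right of 0, with medians of 0.37 and 0.51, and the medians of the other lists drawn lie nearer to 0.

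Genes that respond to glucocorticoids, the adrenal hormones whose level in mice rises towards lights off, were higher at night in 5 of 14 and lower in 2, against 6.8% and 6.1% of all genes. Zbtb16 rose the most, from 0.982, 4.43, 1.37, 2.58 and 2.02 CPM to 13.1, 12.3, 16.2, 6.15 and 14.2 CPM (2.44 ± 0.40, edgeR adjusted p = 2.0e-05). Tsc22d3, which encodes the glucocorticoid-induced leucine zipper, rose from 31.4, 45, 44, 25 and 31.9 CPM to 97.6, 89.4, 105, 88.1 and 77.1 CPM (1.36 ± 0.14), and Sgk1, a kinase that raises sodium reabsorption, from 54.5, 75, 88, 58.2 and 66.5 CPM to 165, 110, 141, 160 and 156 CPM (1.13 ± 0.19). None of these 3 genes overlapped between times. Fkbp5 (0.82 ± 0.18) and Sult1a1 (0.48 ± 0.10) were higher as well. The metallothionein genes Mt1 (-0.74 ± 0.15) and Mt2 (-0.77 ± 0.20), which metals also induce, were lower. Zbtb16, Tsc22d3 and Sgk1 had control means of 11, 99 and 157 CPM already at ZT12. This set them apart from Sdf2l1 and Hspa5, which were at their lowest then. Of 21 immediate early genes 2 were higher, Myc (1.24 ± 0.31) and Ier3 (0.50 ± 0.16).

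**Figure D3:**
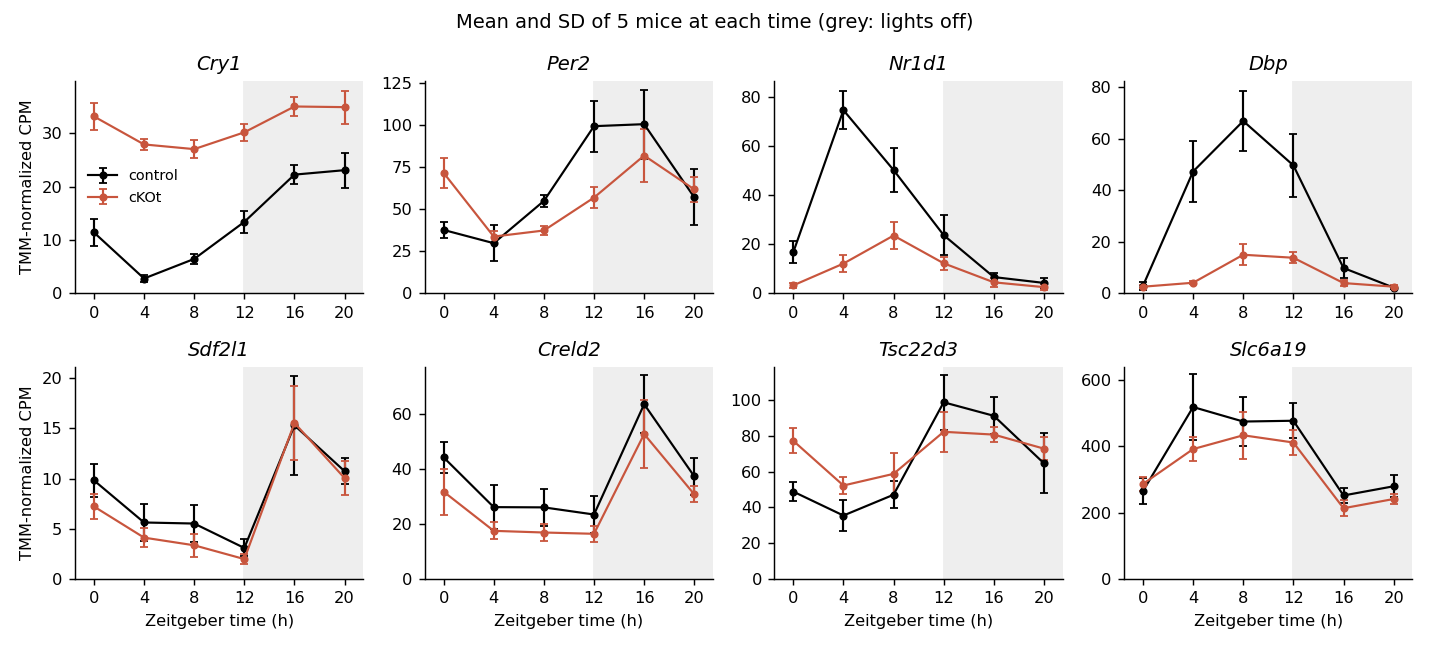
Mean TMM-normalized CPM with SD (n = 5 mice per point) of 8 genes over ZT in hours, in control (black) and cKOt (red) kidneys, with lights off in grey. In controls Sdf2l1 and Creld2 step up between ZT12 and ZT16, from 3.07 to 15.3 CPM and from 23.4 to 63.5 CPM, whereas Tsc22d3 is already at 99 CPM at ZT12.

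Among transporters of the proximal tubule, which reabsorbs most of the filtered solutes, 7 of 26 were lower at night and 2 were higher, against 6.1% and 6.8% of all genes. Slc6a19, the main transporter of neutral amino acids (chr13:73679745-73704865, minus strand), fell from 468, 508, 511, 685 and 419 CPM to 269, 262, 270, 235 and 222 CPM, a log2 difference of -1.04 ± 0.11 (edgeR adjusted p = 8.9e-10), and no values overlapped. The other 6 fell by less: Slc5a12, a lactate transporter (-0.38 ± 0.09), the phosphate transporter Slc20a2 (-0.26 ± 0.07), the sodium-proton exchanger Slc9a3 (-0.24 ± 0.07), the sulfate transporter Slc26a1 (-0.24 ± 0.06), the cystine transporter Slc7a9 (-0.22 ± 0.08) and the urate transporter Abcg2 (-0.15 ± 0.04). Slc13a3, a dicarboxylate transporter (0.35 ± 0.10), and the water channel Aqp1 (0.18 ± 0.06) were higher. The count of 7 depended on the 2 factors of unwanted variation in the model: without them 1 gene of the list was lower.

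In the distal nephron, where sodium excretion is adjusted, the log2 differences of called genes lay between -0.77 and 0.44, and counts are read against 6.8% of all genes higher and 6.1% lower. Of 16 genes of the distal convoluted tubule and its WNK kinase pathway, 4 were higher, namely Kcnj10, a potassium channel (0.26 ± 0.06), Atp2b1 (0.18 ± 0.05), Wnk4 (0.17 ± 0.05) and Oxsr1 (0.12 ± 0.04). In the collecting duct list 1 of 18 was higher and 1 lower. Scnn1a, the alpha subunit of the epithelial sodium channel, read 69.1, 72.6, 75.4, 61.5 and 55.2 CPM by day and 113, 90.4, 83.6, 89.3 and 78 CPM by night (0.44 ± 0.08), with no overlap. The water channel Aqp3 was lower (-0.28 ± 0.08) but its night values of 38 to 74 CPM spanned those by day. Of the intercalated cell list, the ammonia transporter Rhcg was higher (0.32 ± 0.08) and the anion exchanger Slc26a7 lower (-0.77 ± 0.17), and of 11 thick ascending limb genes Cldn10 was lower (-0.20 ± 0.07). Agtr1a, the angiotensin receptor, was the 1 of 8 genes of the renin-angiotensin system that was lower (-0.29 ± 0.08).

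Metabolic lists ranged from 4 of 13 genes called to 0 of 20, against 12.9% of all genes. In gluconeogenesis, of which the kidney performs part in fasting, Pck1 (0.62 ± 0.18), G6pc (0.58 ± 0.16) and Got1 (0.19 ± 0.06) were higher and the glucose transporter Slc2a2 lower (-0.44 ± 0.08), out of 13 genes. In lipid synthesis, Srebf1, its transcriptional regulator (0.70 ± 0.13), Scd2, a desaturase (0.63 ± 0.09), and Acly (0.19 ± 0.06) were higher out of 11, and 4 of 24 genes of the sterol list were higher, among them Pmvk (0.29 ± 0.09) and Lss (0.25 ± 0.09). The median of the sterol list was 0.02, so that its uncalled members lay on both sides of 0. Slc25a20, the carnitine carrier (0.34 ± 0.11), was the 1 of 23 genes of fatty acid oxidation called, and 0 of 20 targets of PPAR alpha were called by edgeR, with 3 at an unadjusted p below 0.05, 1 called by DESeq2 and 0 by limma. In NAD metabolism, Nampt, the rate-limiting enzyme of NAD salvage, rose from 203, 206, 186, 176 and 196 CPM to 208, 276, 276, 287 and 258 CPM (0.42 ± 0.05, edgeR adjusted p = 3.1e-07), and Nt5e by 0.74 ± 0.13. Acmsd (-0.43 ± 0.15), Qprt (-0.30 ± 0.06) and Naprt (-0.23 ± 0.06) were lower. All 5 night values of Nampt exceeded the day values, though replicate 1 did so by only 2 CPM.

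Smaller groups followed, with counts read against 6.8% of all genes higher and 6.1% lower. Of 14 genes of glutathione synthesis and of the response to NRF2, the regulator of the antioxidant response, 3 were higher. These were Hmox1 (0.77 ± 0.18), Txnrd1 (0.35 ± 0.06) and Nfe2l2, the NRF2 gene itself (0.19 ± 0.07). In the list of heme synthesis and drug oxidation Alas1, the first enzyme of heme synthesis, was higher (0.63 ± 0.13) while Ppox (-0.22 ± 0.05) and the vitamin D hydroxylase Cyp24a1 (-1.39 ± 0.46, overlapping) were lower out of 17. Of 21 autophagy and lysosome genes Gabarapl1 (-0.43 ± 0.07) and Ulk1 (-0.22 ± 0.07) were lower and Becn1 higher (0.14 ± 0.04). Of 11 polyamine genes Amd1 was higher (0.30 ± 0.10) and Azin2 lower (-0.45 ± 0.15), and of 22 genes of RNA polymerase I and ribosome assembly Polr1a (0.31 ± 0.07), Nolc1 (0.26 ± 0.09) and Polr1b (0.17 ± 0.06) were higher.

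Some matrix genes were lower at night, while most did not pass the test. Among 19 genes of the extracellular matrix and TGF-beta pathway 13 did not pass and 5 were lower, against 6.1% of all genes, namely the protease gene Mmp14 (-0.79 ± 0.15), Col1a1 (-0.71 ± 0.17), Col3a1 (-0.56 ± 0.18), Col4a1 (-0.38 ± 0.07) and Col4a2 (-0.25 ± 0.08), and the receptor gene Tgfbr1 was higher (0.28 ± 0.04). Of 32 collagen genes 24 did not pass the test, with a median over the list of -0.06, 6 were lower and 2 higher, the latter being Col27a1 (0.90 ± 0.18) and Col4a6 (0.58 ± 0.19). The collagen list and the matrix list share genes, among them Col1a1, so their counts are not separate. The 6 fibroblast and mural cell markers, of which Col1a1 is 1 and the only one called, summed to 157 to 216 CPM at ZT4 and 115 to 191 CPM at ZT16, and the part of these cells in the matrix differences was not tested.

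Several further lists held few called genes, against 6.8% of all genes higher and 6.1% lower. None of 81 cytosolic ribosomal protein genes, 79 nuclear-encoded and 7 mitochondrially encoded respiratory chain genes, 25 cell cycle genes and 20 interferon-inducible genes passed the edgeR threshold in either direction, nor that of DESeq2 or limma. At an unadjusted p below 0.05 there were 1, 2, 0, 1 and 1 of them in these lists, and their median log2 differences lay between -0.04 and 0.12. The log2 difference was positive in all 7 mitochondrially encoded genes. Of 77 mitochondrial ribosomal protein genes 3 were lower, and of 37 proteasome genes 2 were higher.

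By size, other genes among the 12 largest rises and 12 largest falls without overlap lay outside these lists. Clec2h, a C-type lectin gene, fell from 110, 75.4, 106, 128 and 49.5 CPM to 25, 40.4, 32, 31.3 and 47.5 CPM (-1.42 ± 0.22). Neil2, a DNA glycosylase of base excision repair (-1.24 ± 0.19), Dgkg, a diacylglycerol kinase (-1.16 ± 0.18), Gprin3 (-1.08 ± 0.27), the apelin receptor gene Aplnr (-0.95 ± 0.20), Tmem86a (-0.85 ± 0.14), Atxn1 (-0.84 ± 0.16) and Slc35f3 (-0.83 ± 0.13) also fell. Rises were seen in Gm43305, a predicted gene (2.41 ± 0.53), and in C4a (1.56 ± 0.30) and Nat8f5 (1.29 ± 0.21), whose reads may be shared with close copies in their families so that their values are uncertain.

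Over the 6 times, the genes called here differed in when they were highest. Of the 1057 genes higher at ZT16, 46.5% had their highest control mean at ZT16, 27.4% at ZT20, 14.6% at ZT12 and 11.2% at ZT0, and 54.9% had their lowest mean at ZT4. Of the 948 lower genes, 54.7% were highest at ZT4 and 21.8% at ZT8, and 49.5% were lowest at ZT16. The call itself keeps a gene higher at ZT16 from being highest at ZT4, so these shares describe the called genes and are no test.

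**Figure D4:**
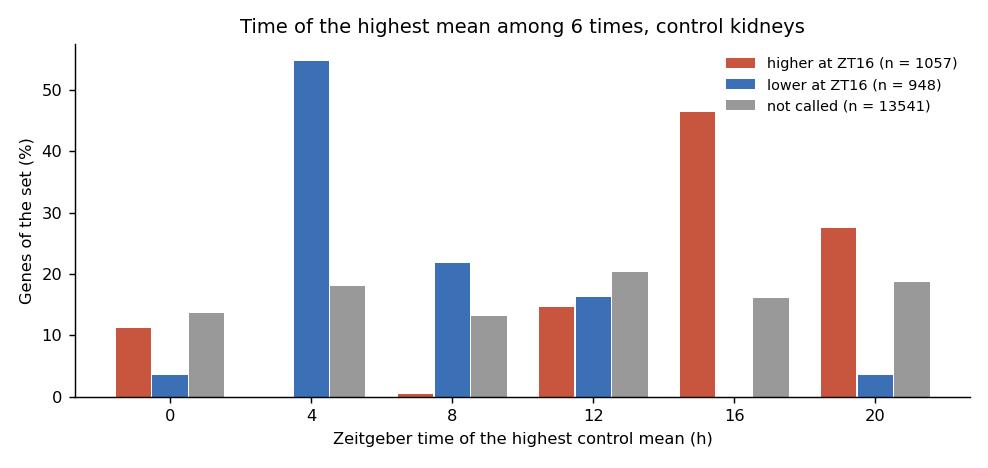
Share of genes, in percent, whose control mean was highest at each of the 6 times (ZT, hours), for genes higher at ZT16 (red), lower at ZT16 (blue) and not called (grey). Of the genes higher at ZT16, 46.5% were highest at that time, and of the genes lower, 54.7% were highest at ZT4.

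In cKOt kidneys, which came from other mice (n = 5 per time), the same contrast called 1602 genes (10.3%). Which genotype had more calls depended on the model, since without the 2 factors of unwanted variation the count was 2380 in cKOt and 1004 in controls. The contrasts shared 747 genes called in the same direction, which is 37.4% of the control calls and 46.8% of the cKOt calls, and 2 called in opposite directions. A difference between the contrasts, tested as an interaction in edgeR, passed in 43 genes (0.277%), with 1452 at an unadjusted p below 0.05. This count was 80 with DESeq2, 77 with batch in place of the factors of unwanted variation, 26 without control ZT4 replicate 3 and 27 without cKOt ZT16 replicate 3. In 32 of the 43 the control difference was the larger in size.

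The interaction passed for 7 of the 22 clock genes, against 0.277% of all genes. The Cry1 rise was 0.34 in cKOt, 2.67 ± 0.17 below that in controls on the log2 scale (edgeR adjusted p = 7.2e-18), as cKOt kidneys held 27 to 29.8 CPM at ZT4 and 32.1 to 37.1 CPM at ZT16. Dbp, at 3.3 to 4.67 and 2.36 to 5.17 CPM, lacked the high day value (-1.98 ± 0.31). Nr1d1 fell in both genotypes, by -3.51 in controls and -1.71 in cKOt, and these differed by -1.79 ± 0.36 (adjusted p = 0.0056). Cry2 (0.50 ± 0.09), Nfil3 (1.98 ± 0.48, adjusted p = 0.049) and Per3 (-0.93 ± 0.22) also differed in edgeR, the last because Per3 rose by 0.91 in cKOt and was level between these times in controls. The difference of Nfil3 did not pass in limma. For Per2 the rise was 1.2 in cKOt and 1.74 in controls, and the difference of 0.54 ± 0.23 did not pass (adjusted p = 0.42). Arntl measured 17.4 to 21.3 CPM at ZT4 and 19.6 to 21.6 CPM at ZT16 in cKOt. Counts over the whole gene include exons outside the floxed part and cells without Cre, so they do not check the deletion.

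Outside the clock, Nampt (0.40 ± 0.08), Lonrf3, a ubiquitin ligase-like gene (1.41 ± 0.28), Fabp7, a fatty acid-binding protein (-1.11 ± 0.23), and the predicted gene Gm42047 (1.79 ± 0.41) differed between genotypes. Lonrf3 rose in controls from 1.86, 3.54, 1.87, 2.14 and 3.21 CPM to 6.23, 6.51, 7.63, 10.5 and 6.16 CPM and had a log2 difference of 0.11 in cKOt. Fabp7 fell in controls from 6.38, 5.81, 7.3, 8.24 and 6.58 CPM to 2.42, 2.22, 3.44, 2.81 and 4.49 CPM and had -0.05 in cKOt. Gm42047 differed only through its fall in cKOt (-1.70), with 0.09 ± 0.28 in controls. The interaction passed in edgeR for 0 of the 32 ER folding genes (1 at an unadjusted p below 0.05) and 0 of the 21 heat shock genes (0 at an unadjusted p below 0.05), and DESeq2 and limma also called 0. Since 0.277% of all genes passed, a count of 0 does not set lists of this size apart. In cKOt 22 ER folding and 13 heat shock genes were higher at ZT16, where 10.3% of all genes were called in either direction. Their medians were 0.35 and 0.53, beside 0.37 and 0.51 in controls. Across members the log2 differences of the genotypes correlated with Pearson's r of 0.952 over 32 genes and 0.901 over 21 genes. The members are not independent replicates and were normalized in 1 fit. Hspa5 rose by 1.21 in cKOt and Hsp90aa1 by 0.74. Of the glucocorticoid list, Zbtb16 rose by 2.44 in controls and had a log2 difference of 0.27 in cKOt, but the difference between genotypes, 2.17 ± 0.55, did not pass in edgeR (adjusted p = 0.065). The outcome for this list depended on the tool: of its 14 genes the interaction passed for 0 in edgeR, 1 in DESeq2 and 1 in limma.

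**Figure D5:**
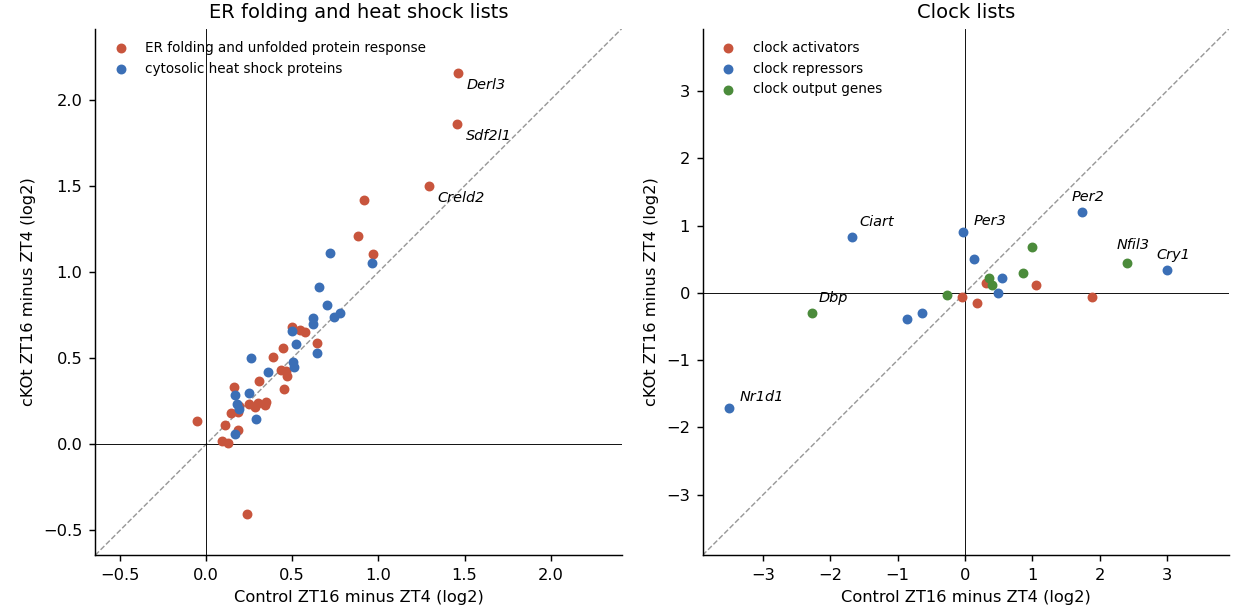
Log2 difference, ZT16 minus ZT4, in cKOt kidneys (vertical) against control kidneys (horizontal), with 1 point per gene, for ER folding and heat shock genes (left) and clock genes (right), and a dashed line where both are equal. ER folding and heat shock genes lie along the dashed line, while Cry1 (3.01 in controls, 0.34 in cKOt) and Dbp (-2.28 and -0.30) lie near the horizontal axis.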

How the data were processed

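Total RNA was made into stranded polyA libraries and sequenced as single reads. Per the labels, the submitters' processing notes name bcl2fastq, cutadapt 1.8, STAR 2.5.3a, HTSeq 0.9.1 and GRCm38, and the authors deposited raw counts per gene, without normalization, for each sample. Lines that name no gene were left out: reads in no gene came to 7.17% to 8.74% and ambiguous reads to 1.09% to 1.27% in the 10 controls. Symbols were taken from GENCODE M21.

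Counts of all 60 samples (12 groups) were fitted together in edgeR 4.0.16 (R 4.3.3): a minimum of 1 CPM reached in 1 or more samples, TMM scaling, group means plus 2 RUVs factors of unwanted variation as in the study, quasi-likelihood F tests, Benjamini-Hochberg adjustment over 15546 genes and a threshold of 0.05. CPM are TMM-normalized and not divided by length. They are compared between samples only. Errors are SE of the fit. SE and p-values measure the spread between mice that remained after the 2 RUVs factors. These factors were built from differences between mice of the same group, and the spread was estimated over all 60 samples. Alternatives used limma 3.58.1 and DESeq2 1.42.0. Named genes were the 12 largest rises and 12 largest falls that were called, averaged at least 5 CPM and did not overlap, all clock genes, the 2 largest called per list and direction, and the 8 strongest genotype differences. Further called members were named to complete counts, after their values were seen. Some named items are not reported here. The lists and members were chosen with earlier results of these data known. Promoters and their coordinates came from RefSeq (GRCm38.p6). The lowest ratio of squared differences to Poisson noise over 20 replicate pairs was 6.68, so no pair was counted as 1 sample.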

Additional observations from a re-analysis of the deposited data

Results flagged for a closer look

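In 15 of the 196 groups of 5 values examined for the named genes, the highest or lowest mouse stood far from the others, where chance gives about 1 in 20. Of these 15, 8 were in the ZT16 kidney of replicate 1, which had the highest value of Srebf1 (74.5 CPM, next 40.4), Mt1 (11.2, next 7.56), Qprt (61.5, next 45.6), Aqp1 (1176, next 988), Ulk1 (66.6, next 50.7) and Polr1a (38.6, next 31.0) and the lowest of Pck1 (2714 CPM, next 3952) and Slc2a2 (163, next 188). Its part in the differences was not tested beyond leaving it out. The ZT4 kidney of replicate 4 stood apart in Aplnr (18.5 CPM, next 9.66) and Acmsd (226, next 151), and that of replicate 2 in Nr1d2 (238 CPM, next 187) and Wee1 (25.2, next 15.8). Single further cases were Pck1 at ZT4 in replicate 5 (3195 CPM, next 2364), Cct7 at ZT4 in replicate 1 (143, next 120) and Gabarapl1 at ZT16 in replicate 4 (502, next 444).

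The difference between ZT16 and ZT4 itself differed between control and cKOt kidneys, by the interaction in edgeR, in several named genes. On the log2 scale, control minus cKOt, it was 2.67 for Cry1, 1.98 for Nfil3, -1.79 for Nr1d1, -1.98 for Dbp, -0.93 for Per3, 0.50 for Cry2, 0.40 for Nampt, 1.79 for Gm42047, 1.41 for Lonrf3 and -1.11 for Fabp7.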

How the results depend on the processing

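The number of genes called between ZT16 and ZT4 in controls, 2005, depended on the samples fitted and on the modelling of unwanted variation. With all 60 samples it was 1004 without the 2 RUVs factors and 1169 with the batch term in their place. With fewer samples and no RUVs factors it was 988 with the 30 controls, 552 with the 10 kidneys and 218 with these and batch. When a fold change above 1.2 was also asked it was 1255, of which 549 were higher and 706 lower at ZT16, so that the majority turned to lower. DESeq2 called 2129, limma 2062, DESeq2 size factors gave 2044 and no filter gave 1510. Leaving out 1 kidney gave 1440 to 2154, the lowest without ZT4 replicate 4. In the other settings the share of called genes that were higher at ZT16 was 51.1% to 56.1%. Genes differing between genotypes numbered 43, against 80 with DESeq2, 77 with batch, and 26 to 53 with 1 sample left out, the lowest being 26 without control ZT4 replicate 3 and 27 without cKOt ZT16 replicate 3. Without the cKOt ZT16 kidney that the study's table marks for removal it was 46. The cKOt contrast called 2649 with batch and 2380 without RUVs factors instead of 1602, so that it then exceeded the control contrast, and 1163 to 1575 with 1 sample left out.

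Among lists (recounts chosen after seeing the data), clock genes called were 18, against 11 with the 10 kidneys alone and 10 with these and batch, and 16 to 18 with 1 left out. ER folding genes higher were 24, against 15 and 12, and 21 to 25. Heat shock genes higher were 15, against 8 with the 10 kidneys and batch, and 14 to 17. Proximal tubule transport genes lower were 7, against 1 without RUVs factors, 4 with batch, 2 with the 30 controls, 1 with the 10 kidneys and 1 with these and batch, and 5 to 7 with 1 left out. The cause of these changes was not tested.

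Of 98 named genes 93 were called, and 39 of them kept the call in all 21 alternatives run for single genes. No called gene changed sign. Uncalled genes near 0 did: Npas2 (-0.04) was 0.0488 with limma and -0.41 to 0.32 with 1 kidney left out, Per1 (0.14) ranged from -0.0031 to 0.26, Per3 (-0.03) from -0.15 to 0.10, and Gm42047 (0.09) was -0.0159 with batch and -0.12 to 0.30 with 1 left out. Same-numbered ZT4 and ZT16 replicates did not deviate together (correlations from -0.088 to 0.088, 0 of 5 over 0.1, and 2 of 5 best with their own number), so the numbers do not pair the mice. With a replicate block the counts were 1993 for controls, 36 for the genotype difference and 1515 for cKOt.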

Other observations

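The mice of 1 time differed in their clock genes in a common direction. For each of the 22 clock genes, a mouse's deviation from its group mean on the log2(CPM + 0.5) scale was set against the difference between the control means at the neighbouring times. At ZT4, with neighbours ZT0 and ZT8, replicate 2 deviated towards the later time in 18 of 22 genes and replicate 3 in 13, while replicates 1, 4 and 5 deviated towards the earlier time in 17, 17 and 15. At ZT16, with neighbours ZT12 and ZT20, replicates 4 and 5 deviated towards the later time in 20 and 21 of 22, and replicates 1, 2 and 3 towards the earlier time in 17, 20 and 17. Clock genes depend on each other, so these counts are descriptions with no test. Replicates 2 and 5 at ZT16 came from the same batch (batch 6) and lay on opposite sides. The single values show the same: at ZT16, Arntl was 36.5 and 28.4 CPM in replicates 4 and 5 and 12 to 16.3 CPM in the others, and Ciart was 1.58 and 2.03 CPM in replicates 4 and 5 and 2.79 to 5.39 CPM in the others. At ZT4, replicate 4 had the highest Arntl (16.8 CPM) and Npas2 (9.72 CPM) and the lowest Per2 (14.7 CPM), Dbp (32.8 CPM) and Ciart (4.12 CPM) of its group.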
